A study of Mus musculus with 9 samples.

Results

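Ephrins and Eph receptors were followed in primary murine lung endothelial cells (MLEC) with and without the JNK1 and JNK2 kinases. The 10 genes were chosen by symbol, as the 4 ephrin genes *Efna1*, *Efna5*, *Efnb1* and *Efnb2* and the 6 receptor genes *Epha2*, *Epha4*, *Ephb1*, *Ephb2*, *Ephb3* and *Ephb4*, and all 10 were found among the 37104 loci measured. RNA-seq had been performed on 9 libraries in 3 groups of 3, and all mice were C57BL/6J animals of 10 to 12 weeks that lacked JNK3 (Jnk3-/-). ECtrl cells carried Cdh5-Cre together with wild-type Jnk1+/+ and Jnk2+/+ alleles. EfCtrl cells were Cre-negative and had floxed alleles (Jnk1LoxP/LoxP and Jnk2LoxP/LoxP), and E3KO cells had the same floxed alleles with Cdh5-Cre. Cre was driven by the promoter of *Cdh5*, which encodes VE-cadherin, so that deletion was directed to endothelium. Each library was an independent isolation from the pooled lungs of 4 mice, made by magnetic selection for the surface protein ICAM2 and culture. ECtrl controls for Cre and EfCtrl for the floxed alleles, and E3KO was compared with each of them.

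Eph receptors are receptor tyrosine kinases that bind ephrins on the surface of adjacent cells. A-type ephrins are held in the membrane by a lipid anchor and B-type ephrins span it, and signals pass into the receptor cell and, in reverse, into the ephrin cell. In blood vessels ephrin-B2 is a marker of arterial endothelium and its receptor EphB4 of venous endothelium, and both are required for the development of the embryonic vasculature.

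Promoter sequences are given for the 2 receptors whose values in E3KO lay below those of all controls, *Ephb1* and *Ephb4*, and for *Epha2*, whose values overlapped. Of the 10605 genes tested, 11.5% had all 3 E3KO libraries below all 6 controls. Each is the RefSeq window of 300 bases around the annotated start on GRCm38.p6, printed 5′ to 3′ on the strand of the gene, and the windows are chr9:102354644-102354943 (minus strand), chr5:137349859-137350158 (plus strand) and chr4:141300971-141301270 (plus strand). Capitals mark matches on either strand to TGACGTCA (the CRE-type site) and GGGCGG (a GC box).
Ephb1: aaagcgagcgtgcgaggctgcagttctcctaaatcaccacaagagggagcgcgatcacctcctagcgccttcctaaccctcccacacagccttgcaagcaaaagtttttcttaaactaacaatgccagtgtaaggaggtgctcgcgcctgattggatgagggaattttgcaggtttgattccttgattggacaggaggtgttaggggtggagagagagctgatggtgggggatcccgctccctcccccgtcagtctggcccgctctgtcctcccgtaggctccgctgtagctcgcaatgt
Ephb4: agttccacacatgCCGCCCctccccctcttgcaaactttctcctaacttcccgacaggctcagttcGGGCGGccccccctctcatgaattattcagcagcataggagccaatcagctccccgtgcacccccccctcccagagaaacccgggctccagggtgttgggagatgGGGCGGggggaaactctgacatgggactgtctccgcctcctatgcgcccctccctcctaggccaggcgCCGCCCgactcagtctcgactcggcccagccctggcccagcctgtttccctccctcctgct
Epha2: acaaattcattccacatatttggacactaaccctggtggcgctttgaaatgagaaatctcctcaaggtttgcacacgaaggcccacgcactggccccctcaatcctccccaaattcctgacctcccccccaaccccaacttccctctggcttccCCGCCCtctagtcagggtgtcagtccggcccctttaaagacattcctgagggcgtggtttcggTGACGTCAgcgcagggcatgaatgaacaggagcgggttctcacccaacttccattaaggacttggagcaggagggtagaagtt
The pattern TGANTCA, with any letter at N, takes in the AP-1 site bound by dimers of the JNK substrate c-Jun but is wider than it. It was present in 0 of the 11 windows found for the 10 genes, and in 7.81% of 32851 promoters of the same length. TGACGTCA occurred in the window of *Epha2* alone of the 10 genes, against 1.79% of all promoters. GGGCGG was found 4 times in the *Ephb4* window and not in that of *Ephb1*, and was present for 7 of the 10 genes and in 35.7% of all promoters. These matches describe the letters of the windows only. The GC content was 55.7% for *Ephb1*, 64.7% for *Ephb4* and 54.7% for *Epha2*.

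The deposited values were FPKM per library, which counts sequenced fragments relative to transcript length and to the size of the library, so that levels can be compared between genes. The depth of each single library is unknown. The library labelled E3KO replicate 1 stood apart, because its FPKM values summed to 9841812 and 10 genes held 96.4% of that sum, whereas the other 8 libraries summed to 656089 to 908401. Without the most abundant genes (a mean of 5000 FPKM or more), all 9 sums lay between 388537 and 433172. The targeted gene *Mapk8* (JNK1) was at 17.0, 15.0 and 17.9 FPKM in ECtrl, 16.7, 14.0 and 15.1 in EfCtrl, and 20.7, 8.77 and 4.65 in E3KO. For *Mapk8* the library labelled E3KO replicate 1 was thus above all controls. Its value for the other floxed gene, *Mapk9*, was 27.6 FPKM, below all controls. The reason for this was not tested. *Mapk9* (JNK2) was lower in all 3 E3KO libraries (20.7 to 35.1 FPKM) than in the 6 controls (42.7 to 50.9), with a log2 difference from the mean of the controls of -0.75 (adjusted p = 0.0359, limma with Benjamini-Hochberg adjustment over all genes tested, as for every adjusted p of limma given here). The adjusted p of *Mapk9* against the mean of the controls was 0.0642 without the library labelled E3KO replicate 1. With 1 library left out it passed the threshold only without E3KO replicate 2 (0.0289 to 0.0983). For *Mapk8* the log2 difference from that mean was -0.67 (adjusted p = 0.285 by limma), and -1.18 (adjusted p = 0.0298 by limma) without the library labelled E3KO replicate 1. *Mapk10* (JNK3) did not exceed 0.270 FPKM in any library. The library labelled E3KO replicate 1 also had the most genes at 0 (19239, against 16436 to 17964 in the other 8 libraries). It was the lowest of the 9 for 7 of the 10 ephrin and Eph genes (*Efna1*, *Efnb2*, *Epha4*, *Ephb1*, *Ephb2*, *Ephb3* and *Ephb4*). The share of all genes for which it was the lowest was not computed, so this may not be particular to the 10 genes. The difference of each of the 10 genes from the controls is therefore also given without it. Pan-endothelial genes had summed FPKM of 3135 to 4178 over the 9 libraries, although *Vwf* did not exceed 2.15 FPKM, and lymphatic markers were abundant (*Lyve1*, 1689 ± 185 FPKM in the controls, SD, n = 6).

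In control MLEC the order of levels was *Efna1*, *Ephb4*, *Ephb1*, *Epha2*, *Efnb2*, *Efna5*, *Efnb1*, *Ephb2*, *Epha4* and *Ephb3*. The mean FPKM of the 6 controls ran from 55.0 ± 5.42 for *Efna1* to 0.110 ± 0.0385 for *Ephb3* (SD, n = 6). *Ephb4* (44.5 ± 6.24) exceeded *Ephb1* (23.5 ± 2.16) in 6 of 6 control libraries, and the ranges were separate. The ranges were also separate between *Efnb2* (17.1 ± 1.66) and *Efna5* (4.53 ± 0.344), between *Ephb2* (1.82 ± 0.757) and *Epha4* (0.441 ± 0.174), and between *Epha4* and *Ephb3*. The other neighbours overlapped in range, *Epha2* (19.3 ± 2.41) being higher than *Efnb2* in 5 of 6 control libraries and *Efnb1* (2.21 ± 1.33) higher than *Ephb2* in 3 of 6. The endothelial cultures thus contained mRNA for A-type and B-type ligands together with receptors of both classes, and *Efnb2* and *Ephb4*, the arterial and venous genes, were present in the same libraries.

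**Figure D1:**
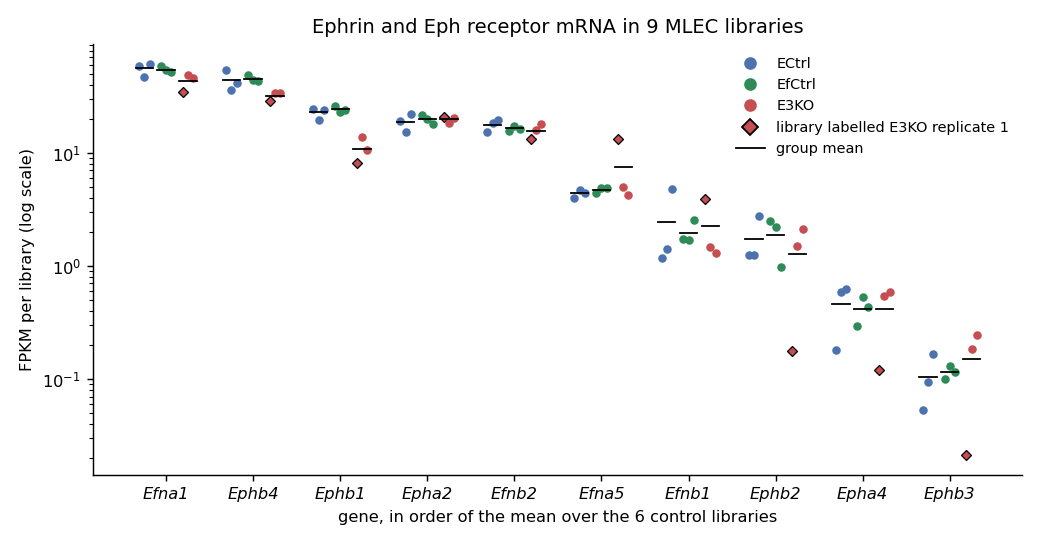
FPKM of the 10 genes (vertical log axis) in each library, grouped by gene along the horizontal axis in order of the control mean, with 3 points for each of ECtrl, EfCtrl and E3KO and a line at each group mean. The 3 E3KO points of Ephb1 and of Ephb4 lie below all 6 control points, as do those of 11.5% of all genes tested. The diamond, the library labelled E3KO replicate 1, is the highest point for Efna5 and the lowest of the 9 for 7 genes, Ephb1, Ephb4, Efna1 and Efnb2 among them.

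The groups were compared by limma on log2(FPKM + 1), for 10605 genes with a group mean of at least 2 FPKM. The fold changes are on this scale, which understates the change of low genes. Of the 10 genes, 7 passed the minimum and *Epha4*, *Ephb2* and *Ephb3* did not. 1 of the 7, *Ephb1*, was called lower and 0 were called higher, in each of 3 comparisons. Of all genes tested, 1.43% were called lower and 0.820% higher against ECtrl, 0.585% lower and 0.368% higher against EfCtrl, and 3.26% lower and 1.54% higher against the mean of the controls. The median log2 difference of the 7 genes from the mean of the controls was -0.12, and that of all genes tested was -0.08. The comparisons share the E3KO libraries. Against the mean of the controls 509 genes were called, 163 higher and 346 lower. With each library centred on its median, 209 were higher and 268 lower. Between EfCtrl and ECtrl limma called 0 of the 10605 genes, with 195 at an unadjusted p under 0.05. For E3KO against ECtrl, EfCtrl and the mean of the controls, 2134, 1878 and 2522 genes had such a p.

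*Ephb1*, which encodes a receptor for B-type ephrins known from axon guidance at the optic chiasm, was the only member called lower by limma. Its FPKM was 24.6, 19.6 and 23.8 in ECtrl, 26.0, 23.0 and 23.9 in EfCtrl, and 8.14, 13.9 and 10.5 in E3KO. All 3 E3KO libraries lay below all 6 controls, as did those of 11.5% of all genes tested. The E3KO mean was 10.8 ± 2.87 FPKM (SD, n = 3), or 46.2% of the control mean. The log2 difference was -1.02 against ECtrl (SE 0.18, 95% interval -1.44 to -0.61, adjusted p = 0.0354 by limma) and -1.12 against EfCtrl (SE 0.18, 95% interval -1.54 to -0.70, adjusted p = 0.0399 by limma). Against the mean of the controls it was -1.07 (SE 0.16, adjusted p = 0.0140 by limma), and EfCtrl differed from ECtrl by 0.10 (adjusted p = 1.00 by limma). An exact two-sided permutation test of 3 E3KO against 6 control libraries gave p = 0.0119, the smallest that the 84 splits allow, and 0.0867 after adjustment over all genes tested.

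Without the library labelled E3KO replicate 1, *Ephb1* remained below the controls. The mean was 52.0% of the controls and the log2 difference from the mean of the controls was -0.90 (adjusted p = 0.0261 by limma). Its omission left an adjusted p of 0.0447 against ECtrl and 0.0510 against EfCtrl. Without E3KO replicate 3, which had an intermediate *Ephb1* level, the adjusted p was 0.0746 against the mean of the controls, 0.116 against ECtrl and 0.149 against EfCtrl, with log2 differences of -1.07, -1.02 and -1.12. With 1 library left out, the call against ECtrl was lost for 6 of the 9 libraries (all but ECtrl replicate 2 and E3KO replicates 1 and 2) and that against EfCtrl for 7 (all but ECtrl replicate 1 and E3KO replicate 2), whereas the difference stayed between -1.30 and -0.85. The locus spans chromosome 9, 101922128 to 102354694 (mm10). The annotation places *9630041A04Rik* on the opposite strand over one end of it, and this gene was listed at 0 in all 9 libraries.

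*Ephb4*, the venous receptor for ephrin-B2, was next among the 7 genes tested in the size of its difference below the controls. Its FPKM was 53.8, 35.7 and 41.3 in ECtrl, 48.9, 43.6 and 43.4 in EfCtrl, and 28.6, 33.4 and 34.0 in E3KO. All 3 E3KO libraries again lay below all 6 controls, as did those of 11.5% of all genes tested. E3KO replicates 2 and 3 were close to ECtrl replicate 2. The E3KO mean of 32.0 ± 2.96 (SD, n = 3) was 72.1% of the control mean. The difference did not pass the test in limma, with a log2 difference from the mean of the controls of -0.45 (SE 0.14, 95% interval -0.77 to -0.14, adjusted p = 0.101), of -0.42 from ECtrl (adjusted p = 0.200) and of -0.49 from EfCtrl (adjusted p = 0.177). The exact permutation test gave p = 0.0119, again the smallest that the 84 splits allow, and 0.0867 after adjustment over all genes tested. It rests on the same separation of the libraries and adds no further evidence to it. Without the library labelled E3KO replicate 1 the difference was -0.38 (exact permutation p = 0.0714). The deposited locus (chromosome 5, 137350109 to 137477064) also spans *Zan*, which is on the opposite strand and was at 0.0292 to 0.239 FPKM.

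*Epha2*, an A-class receptor that binds ephrin-A1 in endothelium, was at 18.9, 15.4 and 22.0 FPKM in ECtrl, 21.5, 19.8 and 18.1 in EfCtrl, and 20.8, 18.3 and 20.2 in E3KO. The groups overlapped throughout. The log2 difference from the mean of the controls was 0.04, with a 95% interval of -0.24 to 0.32 (adjusted p = 0.869 by limma), so the interval holds changes of either sign that are smaller than the fall of *Ephb1*. The difference was 0.00 when the library labelled E3KO replicate 1 was left out (exact permutation p = 1.00). *Epha2* lies on chromosome 4 (141301240 to 141329384).

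The other 3 receptors were low. *Ephb2*, a B-class receptor that can also bind ephrin-A5, was at 1.24, 1.24 and 2.75 FPKM in ECtrl, 2.50, 2.21 and 0.977 in EfCtrl and 0.178, 1.51 and 2.11 in E3KO (exact permutation p = 0.333). *Epha4*, which binds ephrins of both classes, was at 0.182 to 0.625 FPKM in the controls and at 0.119, 0.541 and 0.589 in E3KO (exact permutation p = 0.786). *Ephb3*, another receptor for B-type ephrins, was at 0.0536 to 0.168 FPKM in the controls and at 0.0212, 0.185 and 0.246 in E3KO (exact permutation p = 0.476). The library labelled E3KO replicate 1 was the lowest of the 9 for these 3 receptors too, and E3KO replicates 2 and 3 lay within the control range for *Ephb2* and *Epha4* and above it for *Ephb3*. Without that library the log2 difference of *Ephb2* went from -0.38 to 0.03 (exact permutation p = 0.964) and that of *Epha4* from -0.03 to 0.13 (exact permutation p = 0.429). The difference of *Ephb3* went from 0.05 to 0.13 and its exact permutation p was 0.0357, the smallest that 2 against 6 libraries allow, at a level under 0.3 FPKM at which depth could not be checked. They lie on chromosome 4 (136647539 to 136835988), chromosome 1 (77367185 to 77515088) and chromosome 16 (21204755 to 21223305), in the order given.

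Summed over the 6 receptors, the FPKM was 72.6 to 98.8 in ECtrl, 87.0 to 99.3 in EfCtrl and 57.9 to 67.8 in E3KO. *Ephb1* made up 24.9% to 27.5% of the receptor FPKM in the controls and 14.1%, 20.4% and 15.6% in the E3KO libraries. The share of *Ephb4* was 45.5% to 54.4% in the controls and 49.3% to 50.3% in E3KO. The receptor mRNA of E3KO cells therefore held a smaller part of *Ephb1* and a part of *Ephb4* within the control range. The sum and the shares rest mostly on the values of *Ephb4* and *Ephb1* given above and are no separate result.

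**Figure D2:**
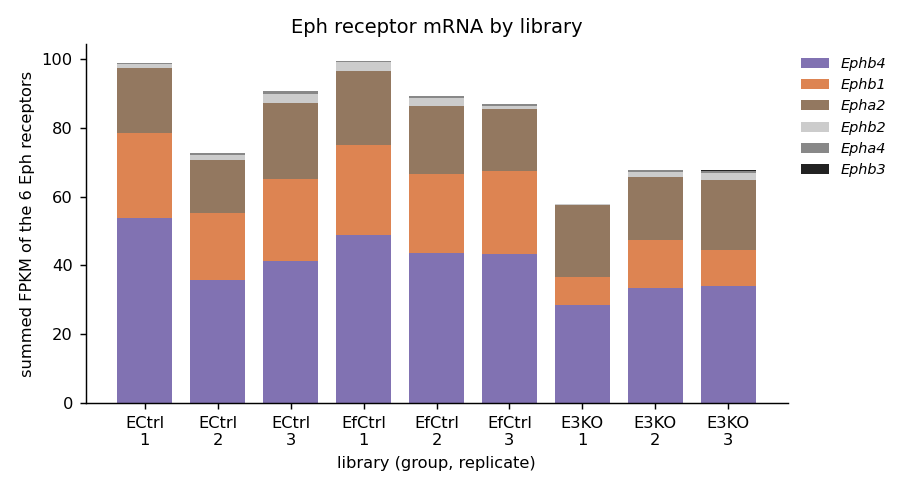
Stacked bars of FPKM for the 6 Eph receptors (vertical axis from 0) in each of the 9 libraries (horizontal axis, group and replicate). The bars of the 3 E3KO libraries reach 57.9 to 67.8 FPKM and are shorter than all 6 control bars. The Ephb1 segment is 8.14 to 13.9 FPKM in E3KO and 19.6 to 26.0 in the controls. Ephb4 and Ephb1 make up most of each bar, and both lay below all controls in E3KO, as did 11.5% of all genes tested.

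Among the ligands, *Efna1*, which encodes ephrin-A1 and was first found as a gene induced by tumour necrosis factor in endothelial cells, was the most abundant. Its FPKM was 58.7, 46.8 and 61.4 in ECtrl, 58.2, 53.8 and 51.3 in EfCtrl, and 34.6, 49.0 and 46.1 in E3KO. The E3KO libraries were below all of EfCtrl, as were those of 19.8% of all genes tested, and overlapped ECtrl through its replicate 2. The log2 difference from the mean of the controls was -0.35 (SE 0.14, adjusted p = 0.182 by limma), and the exact permutation test gave p = 0.0238, or 0.129 after adjustment over all genes tested. Without the library labelled E3KO replicate 1 the difference was -0.20 (exact permutation p = 0.143). *Efna1* lies on chromosome 3 (89271733 to 89281142).

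*Efna5*, encoding another A-type ligand, was at 3.95, 4.71 and 4.43 FPKM in ECtrl, 4.41, 4.86 and 4.83 in EfCtrl, and 13.1, 5.02 and 4.26 in E3KO. The high value was that of the library labelled E3KO replicate 1 alone. The log2 difference from the mean of the controls was 0.47 (SE 0.28, adjusted p = 0.342 by limma), and 0.03 without that library (exact permutation p = 0.714). The mean of the library values of *Efna5* was 0.489, 0.513 and 0.433 of the group FPKM in the same tables for ECtrl, EfCtrl and E3KO, where the median over genes was 0.927, 0.936 and 0.853, so its level is uncertain by about that ratio. *Efna5* lies on chromosome 17 (62604184 to 62881317).

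*Efnb2*, encoding the arterial ligand of EphB4, was at 15.3, 18.4 and 19.5 FPKM in ECtrl, 15.5, 17.4 and 16.2 in EfCtrl, and 13.2, 15.8 and 17.9 in E3KO. The groups overlapped. The log2 difference was -0.17 from ECtrl (95% interval -0.50 to 0.15, adjusted p = 0.511 by limma) and -0.07 from EfCtrl (95% interval -0.40 to 0.25, adjusted p = 0.812 by limma). Without the library labelled E3KO replicate 1 the difference from the mean of the controls was -0.01 (exact permutation p = 0.893). *Efnb2* lies on chromosome 8 (8617434 to 8660773).

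*Efnb1*, on the X chromosome (99136130 to 99148991), encodes a B-type ligand and was at 1.17, 1.42 and 4.77 FPKM in ECtrl, 1.73, 1.68 and 2.52 in EfCtrl, and 3.93, 1.47 and 1.30 in E3KO. Single libraries of ECtrl and E3KO were high and the groups overlapped. The log2 difference from the mean of the controls was 0.00, with a 95% interval of -0.82 to 0.82 (adjusted p = 0.999 by limma), and -0.35 without the library labelled E3KO replicate 1 (exact permutation p = 0.429). Summed over the 4 ligands, the FPKM was 71.4 to 90.1 in ECtrl, 74.8 to 79.9 in EfCtrl and 64.7 to 71.3 in E3KO.

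**Figure D3:**
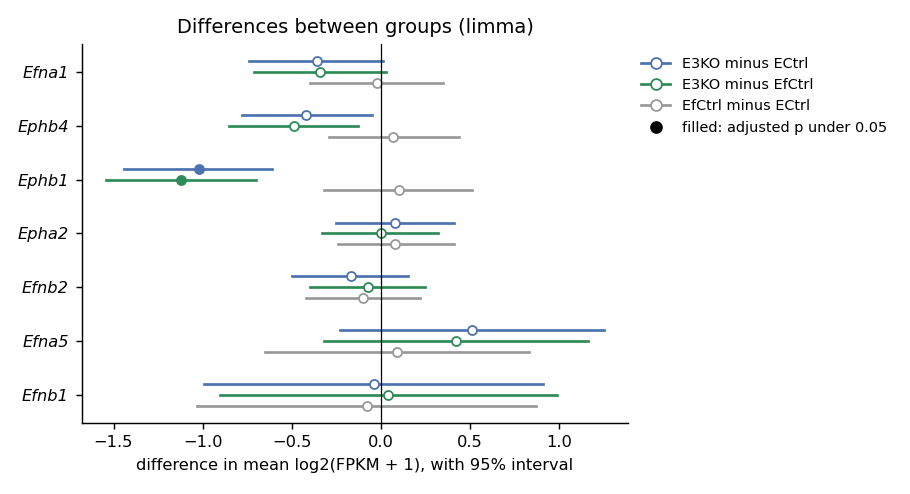
Differences in mean log2(FPKM + 1) (horizontal axis) with 95% intervals from limma for the 7 genes tested (vertical axis), E3KO minus ECtrl, E3KO minus EfCtrl and EfCtrl minus ECtrl. The only filled points are those of Ephb1, at -1.02 and -1.12, and the widest intervals are those of Efna5 and Efnb1.

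The ratio of the arterial ligand to its venous receptor was examined within each library, where a scaling shared by all genes cancels. The log2 ratio of *Efnb2* to *Ephb4* was -1.75, -0.92 and -1.05 in ECtrl, -1.59, -1.27 and -1.37 in EfCtrl, and -1.06, -1.04 and -0.89 in E3KO. The E3KO values were above those of EfCtrl and overlapped those of ECtrl, whose highest value lay below E3KO replicate 3 alone. The SD was 0.09 in E3KO (n = 3) and 0.31 in the controls (n = 6), and the mean was higher by 0.33 in E3KO, which did not pass the test (exact two-sided permutation p = 0.131). The difference was 0.36 without the library labelled E3KO replicate 1 (exact permutation p = 0.179).

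Other arterial and venous genes were read beside these 2. In a list of 14 arterial genes that includes *Efnb2*, 12 were tested against the mean of the controls, and 6 had an unadjusted p under 0.05 in limma. Among all 10605 genes tested, 2522 had such a p. Of the 12, 2 were called lower and 0 higher (3.26% and 1.54% of all genes tested). These were *Hey1*, a transcription factor induced by Notch (6.76 ± 2.21 FPKM in the controls and 2.65 ± 0.525 in E3KO, log2 difference -1.06, adjusted p = 0.0184 by limma), and *Gja4*, the connexin 37 gene (3.61 ± 1.40 and 1.11 ± 0.0456 FPKM, log2 difference -1.07, adjusted p = 0.0408 by limma). Without the library labelled E3KO replicate 1 the adjusted p was 0.0401 for *Hey1* and 0.0775 for *Gja4*. The call of *Hey1* was lost for 3 of the 9 libraries when left out in turn (EfCtrl replicates 1 and 3 and E3KO replicate 3) and that of *Gja4* for 8 of 9, with adjusted p up to 0.0758 and 0.123. The 12 arterial differences were below 0 for 8 genes and above 0 for 4. The 6 at an unadjusted p under 0.05 included *Sox17*, which was higher in E3KO (2.77 ± 0.538 FPKM in the controls and 4.65 ± 1.31 in E3KO, log2 difference 0.57, adjusted p = 0.0733 by limma). Of 7 venous genes that include *Ephb4*, 5 were tested and 2 had an unadjusted p under 0.05 in limma. Of the 5, 1 was called higher and 0 lower (1.54% and 3.26% of all genes tested). It was *Selp*, encoding P-selectin (28.8 ± 6.51 and 73.7 ± 8.87 FPKM, log2 difference 1.36, adjusted p = 0.0182 by limma), whose call was lost without the same 3 libraries as that of *Hey1* (adjusted p up to 0.0843). The median log2 difference was -0.15 over the arterial and -0.13 over the venous genes tested. Whether *Efnb2* or *Ephb4* differed in response from these genes was not tested.

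**Figure D4:**
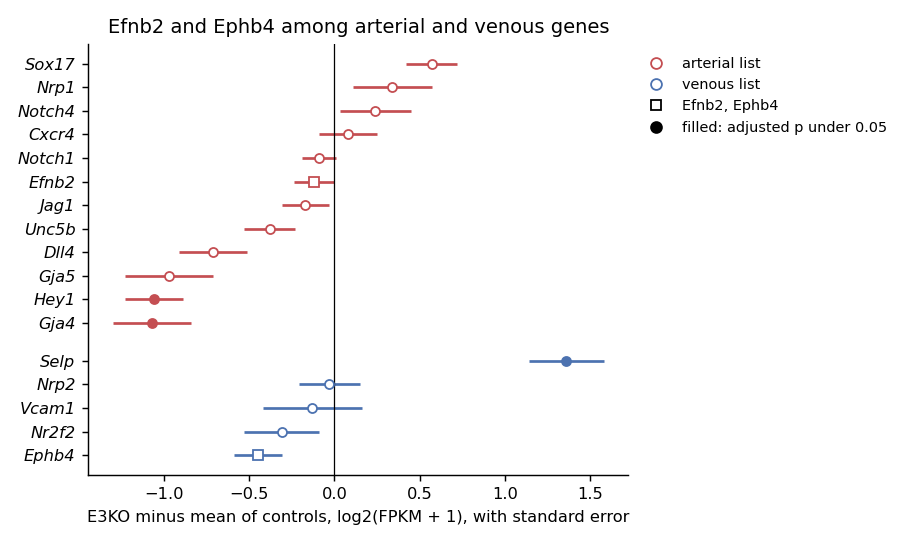
Difference of E3KO from the mean of the controls in log2(FPKM + 1) (horizontal axis) with standard errors for the 12 arterial and 5 venous genes tested (vertical axis), squares marking Efnb2 and Ephb4. Efnb2 stands at -0.12 in the middle of the arterial genes and Ephb4 at -0.45 is the lowest of the venous genes, while Hey1, Gja4 and Selp are filled.

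The cultures are bulk samples, in which fewer cells of a type and less RNA per cell cannot be told apart. Of 7 lymphatic markers, all tested against the mean of the controls, 4 had an unadjusted p under 0.05 in limma, as had 2522 of all 10605 genes tested. Of the 7, 3 were called lower in E3KO and 0 higher (3.26% and 1.54% of all genes tested). They were *Prox1*, the transcription factor of lymphatic identity (134 ± 15.4 FPKM in the controls and 67.3 ± 10.8 in E3KO, log2 difference -0.99, adjusted p = 0.0131 by limma), *Reln* (-0.96, adjusted p = 0.0167) and *Ccl21a* (-1.65, adjusted p = 0.0381). The summed FPKM of the lymphatic list was 2527 to 3341 in ECtrl, 2467 to 2803 in EfCtrl and 2275 to 2566 in E3KO. Of 12 pan-endothelial genes 11 were tested, and *Emcn* was called higher (log2 difference 0.63, adjusted p = 0.0260) and *Cldn5* lower (-0.92, adjusted p = 0.0322). With 1 library left out, the calls of *Prox1* and *Reln* were lost only without E3KO replicate 3 (adjusted p = 0.0746 and 0.0803 by limma), and those of *Ccl21a*, *Emcn* and *Cldn5* for 7, 5 and 7 of the 9 libraries. Leukocyte genes (10 in the list, 9 with values, 4 tested, 0 called against the mean of the controls and 3 at an unadjusted p under 0.05 in limma) summed to 72.1 to 152 FPKM in ECtrl, 157 to 251 in EfCtrl and 197 to 312 in E3KO, with *Cd3e* at 0. Smooth muscle and fibroblast genes (12, with 5 tested, 0 called and 3 at an unadjusted p under 0.05) summed to 12.1 to 45.8, 25.8 to 78.6 and 10.2 to 22.9 FPKM, and lung epithelial genes (9, with 2 tested, 0 called and 0 at an unadjusted p under 0.05) to 2.55 to 6.05, 3.62 to 4.50 and 2.92 to 51.6 FPKM in the same order of groups. The part of these marker differences in the fall of *Ephb1* was not tested.

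The genes whose levels across the 9 libraries were most like each of the 3 vascular members were listed by Pearson's r of log2(FPKM + 1) among the genes tested, as a description over libraries that share the group difference. They are the 3 highest of 10605 genes over only 9 libraries, so that high values of r can arise from the search alone. For *Efnb2* these were *Lrrc27* (r = 0.981), *Cdk6* (0.949) and *Pnpla7* (0.942). For *Ephb4* they were *Vps37c* (r = 0.980), *Lrig1* (0.980) and *Arhgef39* (0.977). For *Ephb1*, added after its values were seen, they were *Cplx2* (r = 0.992), *Agtrap* (0.990) and *Pxdc1* (0.988).

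The rest of the family was scarcely present. Of 12 further Eph and ephrin genes only *Efna4*, an A-type ligand, passed the FPKM minimum, at 2.61 ± 0.480 in the controls (SD, n = 6) and 2.10 ± 0.386 in E3KO (SD, n = 3), with a log2 difference of -0.22 (adjusted p = 0.370 by limma), or -0.24 without the library labelled E3KO replicate 1. The other 11 did not exceed 0.477 FPKM in any library, and *Epha8* was listed at 0 throughout.

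Genes that act downstream of Eph receptors or ephrins were examined as a list of 45. Of these, 39 were tested, 0 were called by limma in either direction against ECtrl, EfCtrl or their mean, with 4, 4 and 7 at an unadjusted p under 0.05. Among all 10605 genes tested, 2134, 1878 and 2522 had such a p, in the same order. The median log2 difference from the mean of the controls was -0.08, that of all genes tested. The lowest were *Nck2*, an adaptor that binds B-type ephrins (7.47 ± 1.07 FPKM in the controls and 4.70 ± 2.59 in E3KO, log2 difference -0.67, adjusted p = 0.193 by limma), *Grb10*, an adaptor that binds EphB1 (58.3 ± 2.63 and 40.9 ± 14.8 FPKM, -0.57, adjusted p = 0.166), and *Tns1*, the actin-binding protein tensin (-0.43, adjusted p = 0.157). Without the library labelled E3KO replicate 1 these differences were -0.29, -0.23 and -0.24. The highest were the kinase gene *Abl1* (0.68, adjusted p = 0.258), the ubiquitin ligase gene *Cbl* (0.33, adjusted p = 0.338) and *Inppl1*, which encodes the phosphatase SHIP2 (0.30, adjusted p = 0.166). *Abl1* was at 63.1 FPKM in 1 E3KO library and its difference was 0.18 without the library labelled E3KO replicate 1.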

How the data were processed

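The authors sequenced paired reads of each MLEC library, aligned them to mm10 with TopHat, estimated FPKM with Cufflinks (1.0.3 in the submitters' processing notes), merged transcript models with Cuffmerge and compared groups with Cuffdiff. The deposited tables hold FPKM per library, used here, and the authors' group FPKM, used for *Efna5* alone. Their columns of log2 fold changes, p-values and q-values were not used. Library values were equal across the 3 tables. Of 37104 loci, 33353 had a symbol of their own and values. Strand-specific counting is not given in the sources used here, so overlapping genes on opposite strands cannot be separated. Comparing low FPKM values between libraries gave no sharp step (7.30% to 20.6% of genes in the commonest bin), so the depth of each single library is unknown (the methods give an average over libraries) and no counting interval was derived.

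Groups and replicate numbers came from the labels, which name no batch. The replicates are separate isolations. On a scale of log2(FPKM + 1), a linear model of the 3 groups was made for all 9 libraries with limma 3.58.1 under R 4.3.3 (default moderation, Benjamini-Hochberg adjustment). Genes needed 2 FPKM as the mean of at least 1 group, and were called at an adjusted p under 0.05. It was tested on simulated data with independent noise for each gene and the same spread in all libraries. Those data held no library that stood apart, so the test does not cover the effect of E3KO replicate 1. Exact permutation tests were two-sided. Promoters were taken from RefSeq (GRCm38.p6, the build mm10) and matched by symbol for 10 of 10 genes, and annotation was GENCODE release M21. Other steps used pandas 2.3.3, numpy 2.4.6 and matplotlib 3.10.9 in Python 3.11.15.

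Genes named were the 10 members, other family members at 2 FPKM or more, called genes and the 3 highest and 3 lowest of the signalling list, the JNK genes, the 3 genes most correlated with *Efnb2* and with *Ephb4*, and called markers. *Vwf*, *Lyve1*, *Cd3e*, *Epha8*, *Sox17* and the genes most like *Ephb1* were named after their values were seen, as were the genes that overlap a member. The members, lists and tests were chosen with earlier results of these data known. Alternatives covered the pseudocount, the filter, centring, a mean-variance trend, the replicate number as a block, the groups in the fit and each library in turn.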

Additional observations from a re-analysis of the deposited data

Results flagged for a closer look

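*Efnb1* was at 4.77 FPKM in ECtrl replicate 3, where the other 5 control libraries lay between 1.17 and 2.52. Its gap to the next library was 0.626 of the range of the 6 controls, just past Dixon's 95% critical value for 6 samples. The 6 libraries belong to 2 control groups, all 10 genes were checked in this way, and chance marks about 5% of such sets.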

How the results depend on the processing

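Over 329 alternative values of the differences of E3KO for the Eph and ephrin genes, 265 kept their direction and side of the threshold, 33 kept their side of it but had no direction to keep, since 1 or both of the values compared were 0.00, 20 lost the call, all of them for *Ephb1*, and 11 changed sign, none of them called. The number of genes called against ECtrl was 239, and 95 with no filter and 0 with only the 2 groups in the fit. Against EfCtrl it was 101, and 17 with no filter. With 1 library left out, limma called 0 to 215 genes against ECtrl, 1 to 218 against EfCtrl, 9 to 408 against the mean of the controls (509 with all libraries) and 0 to 4 between the controls, and the lowest count of each E3KO comparison was that without E3KO replicate 3. *Ephb1* lost its call with no filter (adjusted p = 0.0594 against ECtrl and 0.0661 against EfCtrl, limma) and with only the groups compared in the fit (0.138 and 0.0643). With 1 library left out its adjusted p ranged from 0.0385 to 0.122 against ECtrl, from 0.0373 to 0.180 against EfCtrl and from 0.0205 to 0.0746 against their mean. The difference of *Efnb1* from ECtrl became 0.03 with centring. Leaving out 1 library gave ranges that crossed 0 for *Efnb1* (-0.39 to 0.40 from ECtrl, -0.31 to 0.24 from EfCtrl and -0.35 to 0.22 from the mean of the controls), *Epha2* (-0.05 to 0.20 from ECtrl, -0.06 to 0.06 from EfCtrl and -0.02 to 0.10 from the mean of the controls), *Efna5* (-0.02 to 0.69 from EfCtrl) and *Efnb2* (-0.17 to 0.04 from EfCtrl), and, for EfCtrl minus ECtrl, *Efna1* (-0.14 to 0.05), *Efnb1* (-0.34 to 0.36), *Epha2* (-0.04 to 0.20) and *Ephb4* (-0.06 to 0.23). The causes of these changes were not tested.

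Deviations from the group means correlated at -0.04 to 0.12 between same-numbered libraries and at -0.21 to 0.08 between the others. With so few libraries in a group, these values cannot decide whether the numbers pair the samples. With the replicate block 1 gene was called against ECtrl, 1 against EfCtrl and 202 against the mean of the controls, and *Ephb1* had adjusted p = 0.0472 against the mean, 0.0916 against ECtrl and 0.106 against EfCtrl (limma). The *Efnb2* to *Ephb4* ratio had p = 0.111 by exact permutation within the block, and its difference was 0.25 to 0.41 with 1 library left out.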
